A study of Mus musculus with 4 samples.

Results

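This report concerns 37 genes of the nuclear receptor system in mouse liver, 32 of them encoding receptors and 5 encoding coregulators. They were taken by name as the rows of the deposited expression table that carry 1 of the 37 symbols alone, out of 22849 symbols in all. Livers came from male C57BL/6 mice, an inbred laboratory strain, fed a 60% fat diet for 12 weeks. In 1 group the feed held UAB126 at 1.2 g per kg, and in the other, titled vehicle, it held none, so both groups carry the fat diet and no group on ordinary chow was analysed here. UAB126 is a code name, and the sources used here do not say what the compound is. Each group has 2 libraries of polyadenylated RNA, and because nothing says that they came from separate animals, the p-values measure only the spread between these libraries, which may be technical.

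Nuclear receptors are transcription factors, most of which hold a DNA-binding domain of zinc fingers and a pocket for a small lipophilic ligand. Many of the liver's receptors, among them the fatty acid, oxysterol, bile acid, xenobiotic, thyroid hormone and retinoic acid receptors, bind DNA as a pair with a retinoid X receptor. Coactivators of the NCOA family are recruited when ligand is bound and corepressors such as NCOR1 when it is not, and in liver the system tunes fat oxidation, lipogenesis, bile acid synthesis and drug metabolism to what is eaten.

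No nuclear receptor or coregulator gene was called changed by UAB126. None of the 34 members that could be tested passed the threshold (limma, adjusted p under 0.05), where 0.139% of all 10786 tested genes did (5 higher and 10 lower, but 12 and 12 with quantile normalization and 12 and 10 with the length trend removed). At an unadjusted p under 0.05 there were 2 members, Nr4a1 and Nr6a1, or 5.88% of those tested, against 13.4% of all genes. Without overlap between the groups, 12 tested members were higher in both UAB126 libraries (35.3%, against 22.7% of all genes) and 6 were lower (17.6%, against 26.9%). The higher ones were Ppard, Rxra, Rxrb, Rora, Hnf4a, Nr2c1, Nr6a1, Nr0b2, Ncoa1, Ncoa2, Ncor1 and Ppargc1b. The lower ones were Pparg, Rxrg, Nr1h3, Thrb, Nr2f6 and Nr4a1. The shares of 22.7% and 26.9% of all genes also apply to each count without overlap in the families and lists below. The median difference over the tested members was 0.06 on the log2(FPKM + 1) scale, against -0.03 over all tested genes. Expression is given as FPKM, fragments scaled to transcript length and to library size, which allows levels of different genes to be set side by side. Each difference is UAB126 minus vehicle on the log2(FPKM + 1) scale, a scale that understates the change of low genes. Each ± on a difference is limma's SE (n = 2 per group). Pairs of values give replicate 1 and then replicate 2, with vehicle before UAB126.

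Receptors of this family are themselves under the control of liver transcription factors and of each other. Promoter windows of 4 receptors whose groups did not overlap are shown here, picked because each holds more than 1 copy of a motif searched, after the matches had been seen. Windows of the other members whose groups did not overlap, several of which also hold such copies, are not printed. RefSeq windows (GRCm38.p6) covering the 250 bases upstream of annotated starts were available for 32 of the 37 members, 52 windows in all. Capitals mark exact matches on either strand to the hexamer AGGTCA, the core element that most nuclear receptors bind, to the GC box GGGCGG, to the HNF1 core GTTAAT, and to the element TGCGTCA, a site of the CREB and AP-1 type. The first 3 were kept from 13 motifs scanned over the same windows, and TGCGTCA was added after the Nr4a1 window had been read. No motif shares bases with another in the windows printed. AGGTCA stood in 17.3% of the members' windows and in 14.0% of all 32851 windows. For the GC box these shares were 48.1% and 32.7%, for the HNF1 core 9.62% and 6.43%, and for TGCGTCA 1.92% and 1.75%. A match in these letters is a description and shows no binding.
Nr4a1, chr15:101266596-101266845, plus strand: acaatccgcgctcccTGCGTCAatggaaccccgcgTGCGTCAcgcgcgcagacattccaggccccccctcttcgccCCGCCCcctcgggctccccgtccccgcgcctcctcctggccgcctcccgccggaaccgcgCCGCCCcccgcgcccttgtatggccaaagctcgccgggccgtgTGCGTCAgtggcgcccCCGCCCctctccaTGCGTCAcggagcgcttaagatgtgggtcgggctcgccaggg
Hnf4a downstream start, chr2:163546905-163547154, plus strand: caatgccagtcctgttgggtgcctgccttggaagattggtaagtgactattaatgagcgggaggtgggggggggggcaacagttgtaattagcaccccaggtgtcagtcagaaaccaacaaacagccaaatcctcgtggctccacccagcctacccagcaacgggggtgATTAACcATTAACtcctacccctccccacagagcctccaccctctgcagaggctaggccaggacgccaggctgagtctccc
Rxra downstream start, chr2:27709042-27709291, plus strand: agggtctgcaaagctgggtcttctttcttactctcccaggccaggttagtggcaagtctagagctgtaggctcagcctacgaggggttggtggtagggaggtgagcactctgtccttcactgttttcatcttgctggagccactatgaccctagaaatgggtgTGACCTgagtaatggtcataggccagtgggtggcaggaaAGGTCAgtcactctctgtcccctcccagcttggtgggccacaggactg
Nr6a1 downstream start, chr2:38784516-38784765, minus strand: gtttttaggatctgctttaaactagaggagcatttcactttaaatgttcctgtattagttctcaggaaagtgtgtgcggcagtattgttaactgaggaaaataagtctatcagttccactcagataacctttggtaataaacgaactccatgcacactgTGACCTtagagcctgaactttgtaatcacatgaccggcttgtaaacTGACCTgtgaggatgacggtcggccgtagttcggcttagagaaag
The Nr4a1 window held 4 copies of TGCGTCA and 3 GC boxes, and Nr4a1 was the only member whose windows held that element. The downstream Hnf4a start, known as the promoter used in adult liver, had 2 HNF1 cores separated by a single base. The bases after this start were not found in a GENCODE transcript of the gene, unlike those of the other windows printed. Rxra and Nr6a1 each had 2 AGGTCA hexamers within the last 100 bases before the downstream start, and no other window of a member had more than 1. The window of the other start held 0 in both genes. The share of all windows with more than 1 copy is not given here, and a link of these copies to the UAB126 differences was not tested. The deposited values give 1 level per gene, so transcripts from the different starts were not separated.

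**Figure D1:**
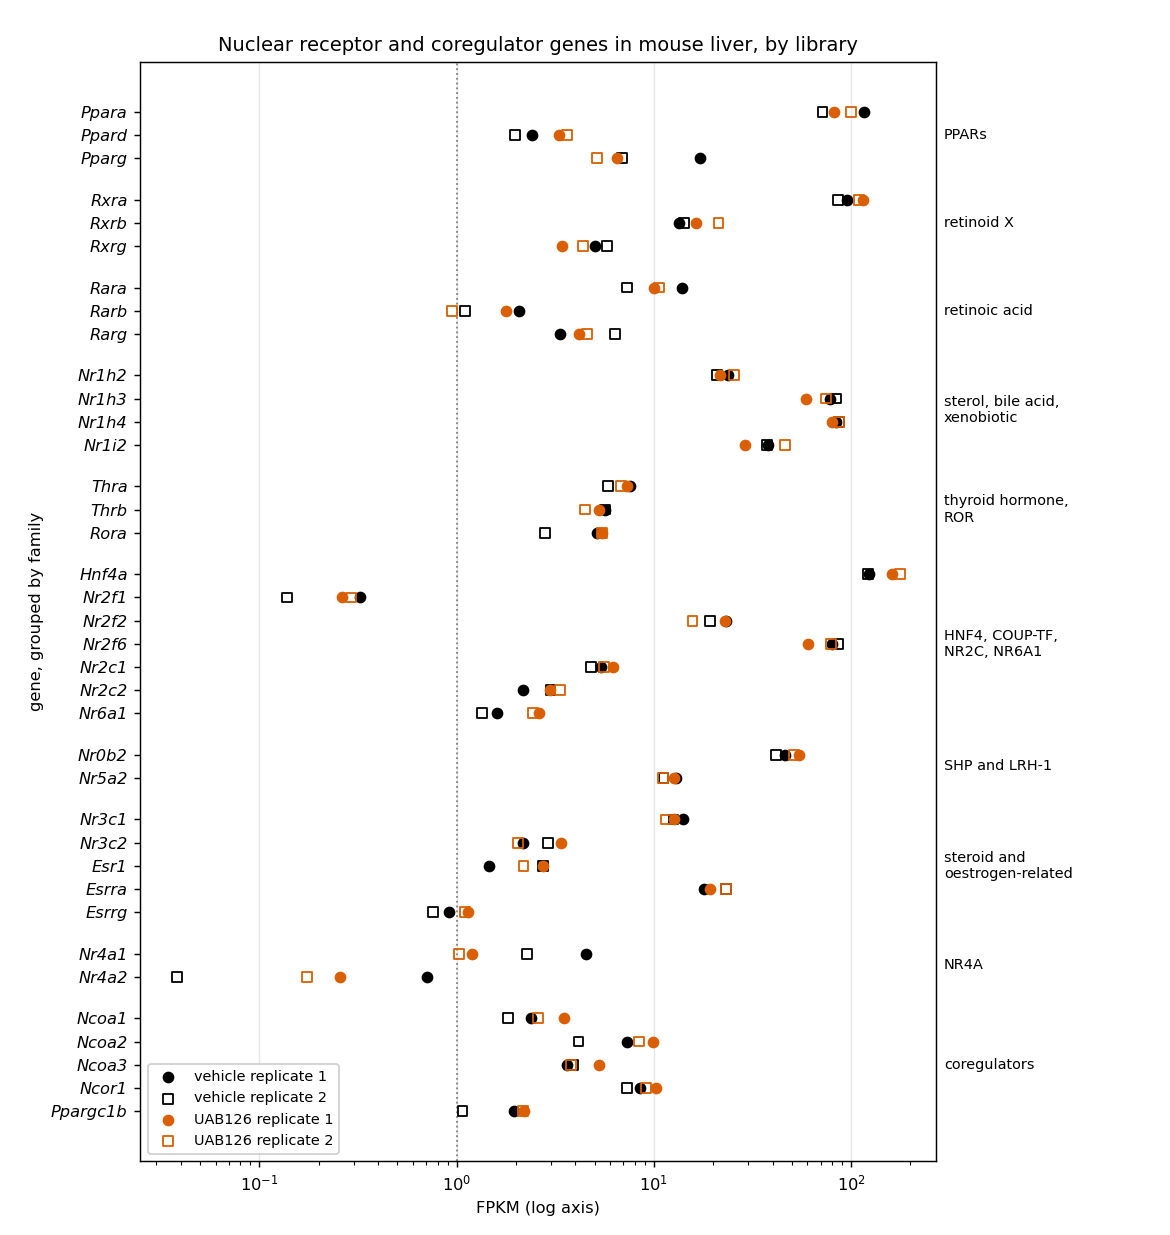
FPKM of each of the 37 genes on a log axis, 1 row per gene grouped by family, with a point for each library (black, vehicle; orange, UAB126; filled circles, replicate 1; open squares, replicate 2) and a dotted line at 1 FPKM. Hnf4a has the highest points in every library (121 to 177 FPKM) and Nr2f1 and Nr4a2 lie under 1 FPKM throughout.

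The order of the levels was much the same in the 4 libraries, as the plot of levels by family shows. Hnf4a ranked first of the 37 members in all 4 libraries. Rxra, Ppara, Nr1h4, Nr2f6 and Nr1h3 shared ranks 2 to 6 and changed places between libraries, so these neighbours did not keep one order. Nr0b2 was the seventh and Nr1i2 the eighth in every library. These 8 include the receptors for fatty acids (Ppara), oxysterols (Nr1h3), bile acids (Nr1h4) and xenobiotics (Nr1i2). At the other end, 20 of the 37 genes stayed under 10 FPKM in all libraries, among them all 5 coregulators but Ncor1, which reached 10.2 FPKM in 1 library. 3 members, Nr2f1, Nr4a2 and Esrrg, had a mean under 1 FPKM and were not tested.

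PPARs are receptors for fatty acids and their derivatives: PPAR-alpha drives fatty acid oxidation in liver, PPAR-delta acts in many tissues, and PPAR-gamma drives fat storage and is raised in fatty liver. Ppara was at 116 and 71.6 FPKM in the vehicle pair against 82.2 and 99.8 FPKM in the UAB126 pair. The UAB126 values lay between the vehicle values (difference -0.01 ± 0.30, limma adjusted p = 0.994). Ppard, at 2.41 and 1.98 FPKM in vehicle, was at 3.30 and 3.64 FPKM with UAB126. Its groups did not overlap, and the difference was 0.49 ± 0.20 (limma adjusted p = 0.375). Pparg (chromosome 6, 115360951 to 115490399 of GRCm38) went the other way, from 17.1 and 6.87 FPKM to 6.52 and 5.16 FPKM. Vehicle replicate 1 stood far above the other 3 libraries, and the lower vehicle library was close to the higher UAB126 library. The difference of -0.81 ± 0.41 (limma adjusted p = 0.431) shrank to -0.21 without vehicle replicate 1 and was -1.41 without vehicle replicate 2. The Pparg groups overlapped after median centring and with the trend on transcript length removed. Among genes of adipocytes, the cell type in which Pparg is most abundant, the 5 markers used summed to 220 and 59.6 FPKM in vehicle and to 7.27 and 33.5 FPKM with UAB126. Most of that sum in every library but UAB126 replicate 1 was Cfd (complement factor D), at 213 and 51.2 against 2.54 and 19.6 FPKM. Adipoq, the defining adiponectin gene, was at 2.80 and 2.59 against 2.09 and 4.47 FPKM. The part of adipocyte RNA in the Pparg values was not tested. Of the summed PPAR transcripts, Pparg made up 12.7% and 8.54% in vehicle and 7.09% and 4.75% with UAB126, and Ppard 1.78% and 2.46% against 3.59% and 3.35%.

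Retinoid X receptors are the shared partners of the heterodimeric receptors, and RXR-alpha is the main form in hepatocytes. Rxra (chromosome 2, 27676440 to 27762957) was at 95.5 and 85.6 FPKM in the vehicle pair against 114 and 109 FPKM in the UAB126 pair, a difference of 0.30 ± 0.21 (limma adjusted p = 0.516) that was 0.59 with quantile normalization (limma adjusted p = 0.388). Rxrb was at 13.5 and 14.1 FPKM against 16.4 and 21.3 FPKM (0.41 ± 0.20, limma adjusted p = 0.427), and without UAB126 replicate 2 its difference was 0.23. Rxrg, the least abundant of these receptors, was at 5.05 and 5.78 FPKM against 3.41 and 4.37 FPKM (-0.40 ± 0.20, limma adjusted p = 0.427). Without UAB126 replicate 1 the Rxrg difference was -0.26. In each of the 3 genes the groups did not overlap, with Rxra and Rxrb higher and Rxrg lower. Summed over the 3 genes, RXR transcripts were at 114 and 106 FPKM in the vehicle pair against 134 and 135 FPKM in the UAB126 pair. Rxrg made up 4.43% and 5.48% of that sum in vehicle and 2.54% and 3.24% with UAB126, shares that were given no test.

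Retinoic acid receptors switch on genes of retinoic acid breakdown and development. The values of Rara were 13.8 and 7.33 FPKM in the vehicle pair against 9.96 and 10.6 FPKM in the UAB126 pair. Rarg was at 3.35 and 6.33 against 4.18 and 4.60 FPKM, and in both genes the UAB126 libraries lay between the vehicle libraries. Rarb, itself a retinoic acid target, was at 2.08 and 1.10 against 1.77 and 0.952 FPKM. Its exons overlap those of Top2b on the opposite strand, a gene listed at 29.7 and 252 FPKM in the vehicle pair against 6.80 and 29.2 FPKM in the UAB126 pair. Whether reads were counted by strand is not stated, so reads of overlapping opposite genes cannot be told apart. The same holds for Thra, Nr2f6 (with Ocel1), Nr2c2 (Mrps25), Esrra (Trmt112), Ncoa3 (Sulf2) and Ncor1 (Pigl and Ttc19), 7 members in all. Of the 6 tested genes on a list of retinoic acid receptor targets, 1 fell and 0 rose past the threshold. That gene was Cyp26a1, the retinoic acid hydroxylase, at 26.0 and 16.8 FPKM in the vehicle pair against 0.605 and 0.561 FPKM in the UAB126 pair (-3.79 ± 0.25, limma adjusted p = 0.0294). Dhrs3, a retinaldehyde reductase, was at 200.1 and 207 against 114 and 134 FPKM, and Tgm2, a transglutaminase, at 34.9 and 35.6 against 52.8 and 38.7 FPKM. The list's median difference was -0.01.

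Of the sterol, bile acid and xenobiotic receptors, 1 of 4 had groups that did not overlap. Nr1h3, which encodes the oxysterol receptor LXR-alpha, was at 77.7 and 84.2 FPKM in the vehicle pair against 59.1 and 74.3 FPKM in the UAB126 pair. The groups did not overlap (-0.28 ± 0.22, limma adjusted p = 0.561), but the difference was -0.12 without UAB126 replicate 1 and -0.45 without UAB126 replicate 2, and the groups overlapped after quantile normalization. Nr1h2, for the widely expressed LXR-beta, was at 23.7 and 21.0 against 21.6 and 25.4 FPKM. Nr1h4, for the bile acid receptor FXR, was at 83.5 and 87.0 against 79.8 and 87.1 FPKM. Nr1i2, for the xenobiotic receptor PXR, was at 37.8 and 37.3 FPKM in the vehicle pair against 29.0 and 46.1 FPKM in the UAB126 pair, so that the UAB126 libraries lay on either side of vehicle. Beside this, Nr0b2 encodes SHP, a receptor without a DNA-binding domain that represses bile acid synthesis and is induced through FXR. Nr0b2 was at 46.3 and 41.8 FPKM in the vehicle pair against 54.7 and 51.5 FPKM in the UAB126 pair (0.27 ± 0.19, limma adjusted p = 0.537), with 0.47 after quantile normalization. Nr5a2, for LRH-1, which SHP represses, was at 13.0 and 11.2 against 12.7 and 11.1 FPKM.

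Among genes that these receptors control, no list had a member past the threshold. Of 13 tested LXR targets, 3 were higher and 5 lower in both UAB126 libraries, with a median difference of 0.01. Mylip, an E3 ligase for the LDL receptor, was at 3.80 and 3.53 against 6.39 and 6.65 FPKM. The lipogenic genes Srebf1 and Scd1 differed by -1.22 ± 0.34 and -1.01 ± 0.32. Of 10 tested FXR targets, 2 were higher and 1 lower, and the median of -0.11 turned to 0.28 with quantile normalization. Slc51b, a bile acid exporter subunit, was at 1.05 FPKM and listed at 0 in the vehicle pair against 1.59 and 1.85 FPKM in the UAB126 pair, Abcb11 (bile salt export pump) at 173 and 178 against 209 and 225 FPKM, and Baat (bile acid conjugation) at 159 and 175 against 125 and 127 FPKM. Of 14 tested targets of PXR and its relative CAR, 5 were higher and 2 lower (median 0.22). Cyp2b10, the classical CAR target, was at 1.40 and 3.03 FPKM in the vehicle pair against 12.2 and 48.9 FPKM in the UAB126 pair (3.04 ± 0.65, limma adjusted p = 0.227). Cyp2b9 was at 1.75 and 0.736 against 6.23 and 21.9 FPKM, and it shares reads with near-identical copies, as does Cyp2b10. Gstm3, a glutathione transferase gene, was at 17.5 and 13.9 against 46.6 and 35.6 FPKM. Nr1i3, the gene of CAR itself, stands in a joint row with Apoa2 and was given no value.

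**Figure D2:**
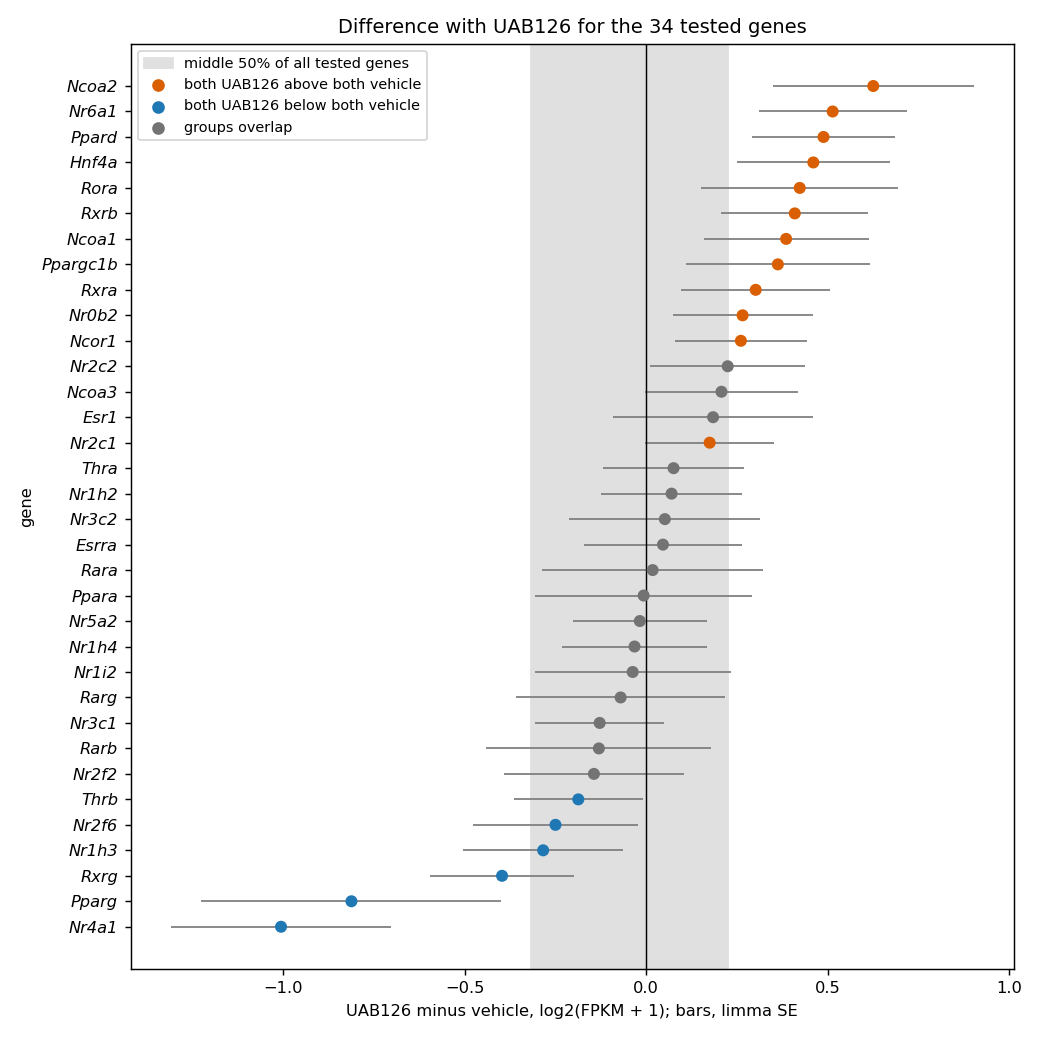
Difference between UAB126 and vehicle on the log2(FPKM + 1) scale for the 34 tested genes, ordered by size, with limma's SE as bars; orange and blue mark genes whose groups did not overlap, and the grey band holds the middle 50% of all tested genes (-0.32 to 0.23). Ncoa2 is at the top (0.63) and Nr4a1 at the bottom (-1.01).

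HNF4-alpha holds the hepatocyte programme in place and needs no added ligand. Hnf4a (chromosome 2, 163506808 to 163572910) was at 123 and 121 FPKM in the vehicle pair against 161 and 177 FPKM in the UAB126 pair. The gap between the groups was wider than that within either, with a difference of 0.46 ± 0.21 (limma adjusted p = 0.408). It ran from 0.39 to 0.53 over the fits without 1 library and was 0.80 after quantile normalization. On a list of 15 tested HNF4A targets the balance was the other way, with 1 gene higher and 9 lower in both UAB126 libraries and a median of -0.42. After quantile normalization that median was 0.06, so the direction of the list turned with the scaling. Apoa4, an apolipoprotein gene, was at 1021 and 831 FPKM in the vehicle pair against 254 and 223 FPKM in the UAB126 pair, and F7 (coagulation factor VII) at 70.8 and 79.8 against 44.2 and 43.4 FPKM. Tat (tyrosine aminotransferase), which the glucocorticoid list also holds, was at 393 and 513 against 1118 and 1431 FPKM. Of 10 hepatocyte markers tested, 1 (Tat) was higher and 6 were lower. The markers share Apob, Ttr, Serpina1a and Tat with the HNF4A list, so their counts do not stand apart from those of the list. Their summed level was 70310 and 132700 FPKM in the vehicle pair against 38880 and 55460 FPKM in the UAB126 pair. Alb, a defining hepatocyte gene, made up 32240 FPKM of the second of these sums and is listed at 0 in the other 3 libraries, while the other 9 markers, Ttr and Apoa1 among them, were above 100 FPKM in every library. The part of hepatocyte RNA in the list's values was not tested. In bulk samples, fewer cells of a type and less RNA per cell cannot be told apart.

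The orphan receptors COUP-TF, TR2, TR4 and GCNF, the last of which is best known from germ cells, made up the rest of this branch. Nr6a1 (GCNF; chromosome 2, 38723370 to 38927688) was at 1.61 and 1.34 FPKM in the vehicle pair against 2.61 and 2.45 FPKM in the UAB126 pair. Its groups did not overlap (0.51 ± 0.20, limma adjusted p = 0.372), with a range of 0.44 to 0.59 over the fits without 1 library. Nr2c1 (TR2) was at 5.39 and 4.80 against 6.19 and 5.58 FPKM (0.18 ± 0.18), with 0.11 without vehicle replicate 2 or without UAB126 replicate 1. Nr2c2 (TR4) was at 2.17 and 2.99 against 2.98 and 3.34 FPKM, with overlap. Nr2f6 was at 79.7 and 85.6 FPKM in the vehicle pair against 60.7 and 79.1 FPKM in the UAB126 pair (-0.25 ± 0.23, limma adjusted p = 0.615), with -0.06 without UAB126 replicate 1, -0.44 without UAB126 replicate 2 and overlap after quantile normalization. Nr2f2 (COUP-TFII, found also in vessel and stromal cells) was at 23.1 and 19.2 against 23.0 and 15.7 FPKM, and Nr2f1 (COUP-TFI) did not exceed 0.323 FPKM in any library.

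Thyroid hormone receptors mediate the action of T3 on liver lipid metabolism, and TR-beta is the main form in hepatocytes. Thrb was at 5.64 and 5.66 FPKM in the vehicle pair against 5.26 and 4.45 FPKM in the UAB126 pair. The vehicle libraries were nearly equal and both UAB126 libraries lay below them (-0.19 ± 0.18, limma adjusted p = 0.634), with -0.09 without UAB126 replicate 2 and -0.29 without UAB126 replicate 1. Thra was at 7.52 and 5.85 against 7.30 and 6.80 FPKM. The Thra exons overlap those of Nr1d1 on the opposite strand, which was at 63.3 and 55.8 FPKM in the vehicle pair against 88.6 and 71.0 FPKM in the UAB126 pair. Of 7 tested thyroid hormone targets, 4 were higher and 2 lower in both UAB126 libraries, with a median of 0.68. The 2 lower ones were the lipogenic regulators Thrsp (1241 and 1215 against 475 and 406 FPKM) and Mid1ip1 (64.0 and 52.2 against 26.1 and 17.9 FPKM). Me1, the malic enzyme, was at 31.5 and 27.4 against 55.3 and 77.2 FPKM (limma adjusted p = 0.227).

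ROR-alpha activates clock genes at elements that the repressors REV-ERB (Nr1d1, Nr1d2) also bind. Rora was at 5.13 and 2.80 FPKM in the vehicle pair against 5.47 and 5.48 FPKM in the UAB126 pair. Vehicle replicate 2 was the low library, and the other 3 were nearly equal (0.42 ± 0.27, limma adjusted p = 0.496). Without vehicle replicate 2 the difference was 0.08, and with it but without vehicle replicate 1 it was 0.77. Of the 17 receptors listed outside the members, 16 had a row of their own, all but Nr1i3, and 4 of these reached the filter on low values. Among the 4, 1 was higher and 2 lower without overlap. In 2 the unadjusted p was under 0.05 (limma), as in 13.4% of all genes, and none passed the threshold. Nr1d2 was at 69.7 and 91.8 against 38.9 and 53.8 FPKM, and Nr1d1, given above, went the other way. Of 9 tested clock genes with ROR elements, 6 were higher without overlap, with a median of 0.41. Arntl, the gene of the clock activator BMAL1, was at 1.07 and 0.511 against 3.04 and 3.30 FPKM, and Nfil3, a clock-controlled repressor, at 12.6 and 13.7 against 19.2 and 20.9 FPKM.

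Steroid and oestrogen-related receptors overlapped between the groups wherever they were tested. Nr3c1, the glucocorticoid receptor, was at 14.0 and 12.6 FPKM in the vehicle pair against 12.7 and 11.5 FPKM in the UAB126 pair (-0.13 ± 0.18, limma adjusted p = 0.753). Among 14 tested genes that it controls, 10 stood higher without overlap and 0 lower (median 1.09), against 22.7% and 26.9% of all genes. None passed the threshold, and 9 had an unadjusted p under 0.05 (limma), as did 13.4% of all genes. Igfbp1, a binding protein for insulin-like growth factors, was at 30.3 and 34.8 FPKM in the vehicle pair against 151 and 349 FPKM in the UAB126 pair. Zbtb16 and Cdkn1a, for a zinc finger repressor and a cell cycle inhibitor, differed by 2.11 ± 0.29 and 2.64 ± 0.41. Nr3c2, the mineralocorticoid receptor, was at 2.17 and 2.91 against 3.38 and 2.04 FPKM. Esr1, the oestrogen receptor, was at 1.46 and 2.74 against 2.74 and 2.18 FPKM. Esrra, a regulator of mitochondrial genes, was at 18.04 and 23.2 against 19.2 and 23.3 FPKM. Esrrg, under the filter and untested, was at 0.915 and 0.756 FPKM in the vehicle pair against 1.14 and 1.10 FPKM in the UAB126 pair, which makes 13 members higher without overlap if all 37 are counted.

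NR4A receptors are immediate early genes, switched on within minutes by hormones, cAMP and stress, and Nr4a1 (NUR77) also promotes gluconeogenesis in liver. Nr4a1 (chromosome 15, 101254269 to 101274795) was at 4.50 and 2.27 FPKM in the vehicle pair against 1.20 and 1.03 FPKM in the UAB126 pair, a ratio of vehicle to UAB126 means of 3.04. Both UAB126 libraries lay below both vehicle libraries, and the vehicle libraries were themselves far apart. The difference, -1.01 ± 0.30 (limma adjusted p = 0.301), was the largest in size among the tested members. It was -0.63 without vehicle replicate 1 and -1.38 without vehicle replicate 2. Its relative Nr4a2 was at 0.711 and 0.0380 FPKM in vehicle, wider apart than either was from the UAB126 values of 0.256 and 0.175 FPKM.

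Of the 5 coregulators, 4 were higher without overlap and 0 lower, against 22.7% and 26.9% of all genes, with a median difference of 0.36. The largest was in Ncoa2, which encodes the p160 coactivator SRC-2. Ncoa2 was at 7.33 and 4.15 FPKM in the vehicle pair against 9.87 and 8.39 FPKM in the UAB126 pair (0.63 ± 0.28, limma adjusted p = 0.399). Vehicle replicate 2 was the low library, and without it the difference was 0.28, against 0.97 without vehicle replicate 1. Ncoa1 (SRC-1) was at 2.37 and 1.82 against 3.52 and 2.59 FPKM (0.39 ± 0.23), and its difference was 0.22 without UAB126 replicate 1 and 0.26 without vehicle replicate 2. Ncoa3 (SRC-3) was at 3.64 and 3.87 against 5.28 and 3.80 FPKM, with overlap. Ncor1, the corepressor that brings histone deacetylase 3 to receptors, was at 8.52 and 7.29 against 10.2 and 9.12 FPKM (0.26 ± 0.18), and at a difference of 0.16 without vehicle replicate 2. With the trend on length removed, the difference of Ncor1 was 0.125 and that of Ncoa1 0.25. Ppargc1b, the mitochondrial coactivator PGC-1-beta, was at 1.96 and 1.07 against 2.19 and 2.17 FPKM (0.36 ± 0.25, limma adjusted p = 0.524). Vehicle replicate 2 was again the low library, and the difference was 0.11 without it and 0.56 with a pseudocount of 0.1. On a list of other coregulators, 12 of 21 tested were higher and 2 lower without overlap, and 0 passed the threshold. The list's median was 0.23, or 0.13 with the length trend removed. Lpin1, a phosphatase and coactivator, was at 11.5 and 14.5 against 27.4 and 74.3 FPKM, Pprc1 at 1.81 and 2.18 against 3.84 and 3.48 FPKM, and Ncoa4 at 1.22 and 0.694 against 3.42 and 1.76 FPKM. Of 18 tested targets of ERR and PGC-1, such as Cs (citrate synthase, 66.1 and 67.1 against 103 and 97.8 FPKM), 3 were higher and 3 lower, with a median of 0.05. The citric acid cycle gene Idh3a stood at 16.3 and 23.8 against 30.2 and 33.8 FPKM, and Ndufa4, a respiratory chain gene, at 1362 and 2461 against 788 and 1320 FPKM.

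Genes controlled by the PPARs were the only lists besides that of the retinoic acid receptors to hold a gene past the threshold. The lists were chosen with earlier results of these data known, so which of them hold such a gene is a description only. Of 29 tested PPAR-alpha targets, 14 stood higher and 3 lower in both UAB126 libraries (median 0.23, or 0.51 with quantile normalization), beside Ppara itself at a difference of -0.01. Fgf21, a hormone gene, rose past the threshold, from 4.51 and 3.44 FPKM to 67.6 and 111 FPKM (4.15 ± 0.29, limma adjusted p = 0.0345). Cyp4a31, a fatty acid hydroxylase gene with near-identical copies that share its reads, was at 5.43 and 1.37 against 46.9 and 94.97 FPKM, and Abcd2 (peroxisomal fatty acid transport) and Ucp2 (a mitochondrial carrier) differed by 1.16 ± 0.20 and 1.07 ± 0.21. Of 9 tested PPAR-gamma targets, 1 was higher and 3 lower (median -0.19, but 0.12 with quantile normalization). Cidea, a lipid droplet gene, fell past the threshold, from 7.17 and 5.87 FPKM to 0.129 FPKM and a value listed at 0 (-2.82 ± 0.22, limma adjusted p = 0.0361). Mogat1, for an enzyme of triglyceride synthesis, was at 3.09 and 1.66 against 0.620 and 0.656 FPKM, Lpl (lipoprotein lipase) at 18.2 and 72.2 against 9.74 and 14.6 FPKM, and Klb, the co-receptor of FGF21, at 4.99 and 4.75 against 6.34 and 7.05 FPKM. The calls of Fgf21, Cidea and Cyp26a1 were all lost without UAB126 replicate 1 (limma adjusted p = 0.0927, 0.233 and 0.233) and without UAB126 replicate 2 (0.225, 0.344 and 0.304), while the differences kept their direction. With no filter on low values the limma adjusted p of each was 0.173, and Cidea also missed the threshold with a pseudocount of 0.1 (0.0662) or with the length trend removed (0.103). Several of these target genes are known to answer to more than 1 receptor, and the lists overlap.

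**Figure D3:**
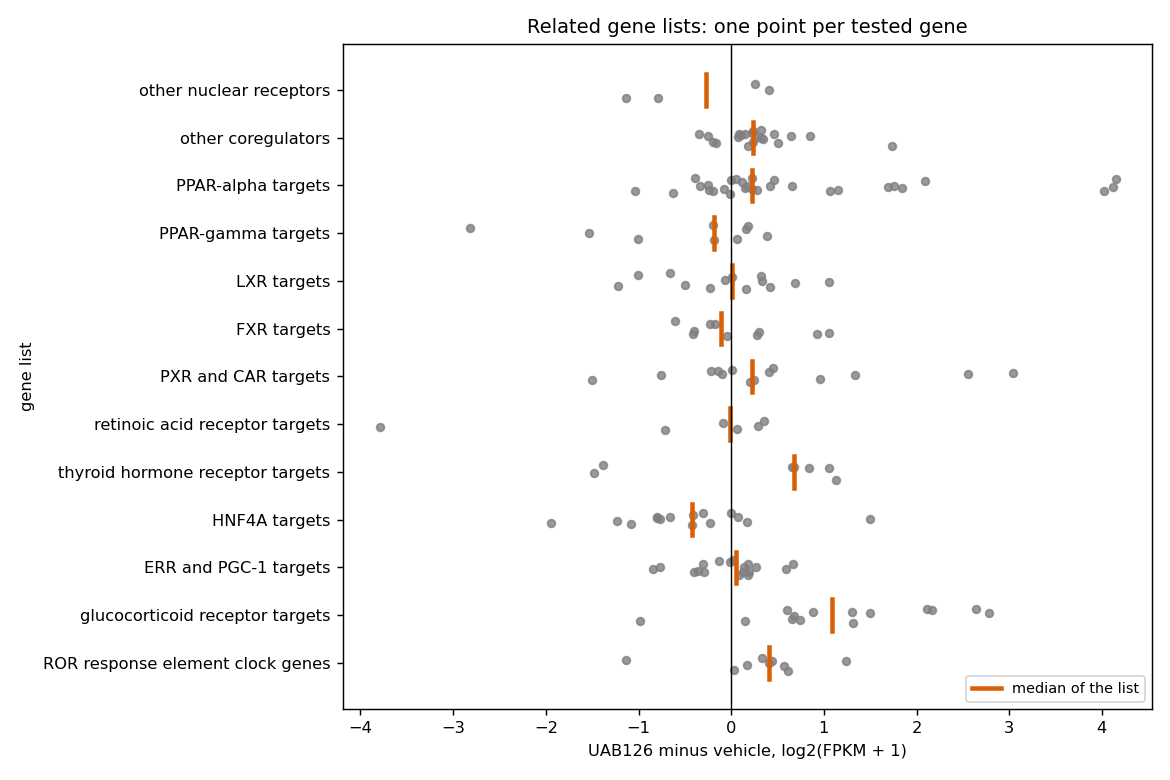
Difference between UAB126 and vehicle on the log2(FPKM + 1) scale for each tested gene of 13 lists of related genes, 1 point per gene with the median of the list as an orange bar; vertical scatter within a row carries no value. The median of the glucocorticoid receptor targets lies farthest to the right (1.09) and that of the HNF4A targets farthest to the left (-0.42).

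Transcript length moved with the differences. Members higher without overlap had a median longest transcript of 4634 bases (GENCODE M21), members lower without overlap 2172 bases and the rest 3399 bases. Over the 34 members Spearman's rho between length and difference was 0.51, and across 9770 tested genes with a length it was 0.33. These are descriptions over genes that share the same 4 libraries. With each library's trend of expression on length removed, 11 of the 12 higher members and 5 of the 6 lower members still had groups that did not overlap. Rora and Pparg were the exceptions, while Nr1h2 and Nr1h4 then stood higher and Nr5a2 and Nr3c1 lower without overlap. That makes 13 of 34 members higher and 7 lower, against 25.7% and 25.1% of all 9770 genes in that fit. The members that stayed apart had been picked for standing apart in the fit as reported. The following shifts by more than 1.5 times are only those of members without overlap in the fit as reported. Nearer 0 were Ncor1 (0.125), Ncoa1 (0.25), Nr1h3 (-0.14) and Nr2f6 (-0.14). Farther from 0 were Nr0b2 (0.64) and Thrb (-0.31). The Hnf4a difference was 0.39, that of Ncoa2 0.49 and that of Nr4a1 -0.94.

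**Figure D4:**
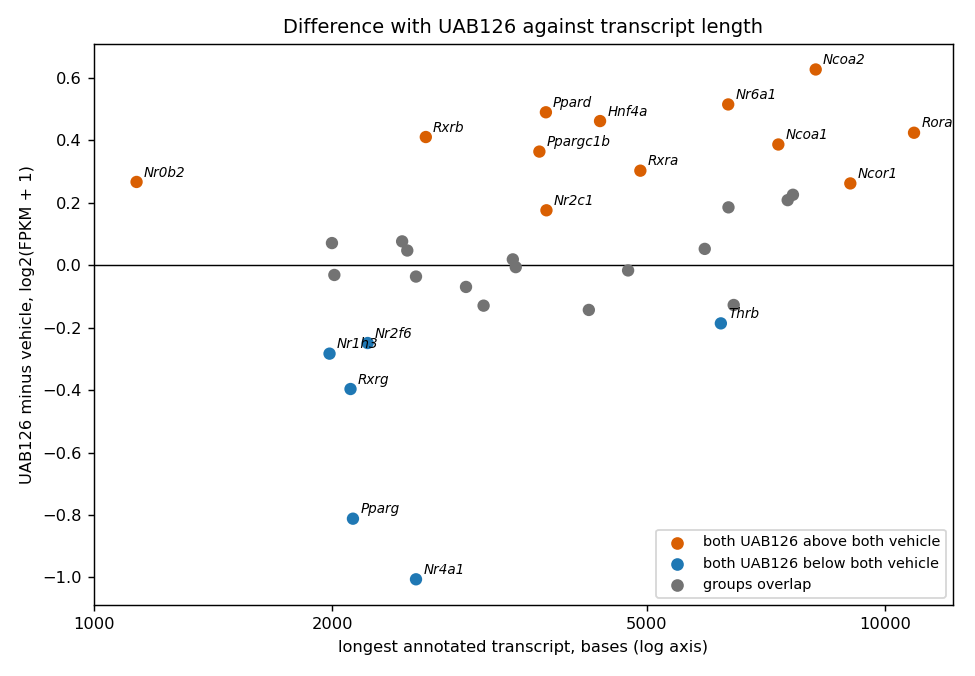
Difference between UAB126 and vehicle (log2(FPKM + 1) scale) of the 34 tested genes against the length of the longest annotated transcript in bases (log axis); orange, blue and grey mark genes as higher, lower or overlapping between groups. The lower genes other than Thrb lie between 1985 and 2553 bases, while 10 of the 12 higher genes lie at 3656 bases or more.

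The libraries differed in ways that touch these values. FPKM summed over all rows came to 5698921 and 11756079 in the vehicle pair against 2464336 and 2891356 in the UAB126 pair. The fit as reported did not rescale the libraries, and the source of these unequal sums was not tested. Read from the steps between low FPKM values, vehicle replicate 2 had 0.405 of the depth of UAB126 replicate 1, vehicle replicate 1 had 0.697 and UAB126 replicate 2 had 0.704, while the absolute depth is unknown. These ratios are rough, since 39.4% to 49.2% of the low rows used fell on such steps. The gap between the vehicle libraries had a median of 0.20 over the tested members on the log2(FPKM + 1) scale, and that between the UAB126 libraries 0.18. Over all tested genes these medians were 0.28 and 0.23. Kupffer cell and macrophage markers summed to 109 FPKM in vehicle replicate 1 and to 238 to 325 FPKM in the other 3 libraries, with all 9 markers used above 0 in every library, and endothelial markers to 87.6 FPKM there against 139 to 158 FPKM elsewhere. Cholangiocyte markers summed to 56.4 to 72.7 FPKM, stellate cell markers to 145 to 182 FPKM and lymphocyte markers to 3.67 to 8.67 FPKM. Neutrophil markers summed to 32.7 FPKM in vehicle replicate 2 and to between 0.539 and 3.60 FPKM elsewhere, and the erythroid gene Alas2 was at 164 and 189 FPKM in vehicle against 59.8 and 70.8 FPKM with UAB126. The part of these cell types in the members' values was not tested.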

How the data were processed

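Liver RNA of 4 libraries was measured as 1 table of FPKM values with a column per library. The authors made these FPKM values on build mm10 using STAR 2.5.1b, Trim Galore 0.4.1, Cuffdiff and Cufflinks 2.2.1, per the submitters' processing notes. For gene annotation and strand, the sources used here give nothing. FPKM is already scaled, so no count test was run. Of 27216 rows, 3634 without a symbol were left out, same-symbol rows were summed (22849 symbols), and the 595 rows naming several genes kept their joint name and served as no member. Each of the 37 members had a single row. After a filter at a mean of 1 FPKM, log2(FPKM + 1) of 10786 symbols was fitted with limma 3.58.1 in R 4.3.3 (eBayes with intensity trend, group as the only term, two-sided, Benjamini-Hochberg adjustment over all tested symbols, threshold 0.05). The moderated test had 5.345 degrees of freedom, 2 of them from the residuals, and an exact permutation of 2 against 2 libraries cannot go below 0.333. The fit was tested on simulated data with changes larger than the difference of any member, so that test does not show how often differences of the members' size would be called. Positions and lengths came from GENCODE M21 (GRCm38, the assembly also called mm10), and each member's position overlapped its deposited locus. Promoter windows came from RefSeq by symbol, and for 44 of 52 the bases after the start were found in a GENCODE transcript of the gene. Tables were handled with Python 3.11.15 and pandas 2.3.3.

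The members, their families, the related lists and the marker lists were chosen with earlier results of these data known. Text names every member, and of related lists each gene past the threshold plus up to 3 with the smallest p among those whose groups did not overlap. Alternatives changed the pseudocount, the filter, the scaling, the variance prior, the handling of shared symbols and zeros, the length trend and the libraries, or added a replicate block. Values of some listed genes are not reported here.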

Additional observations from a re-analysis of the deposited data

How the results depend on the processing

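No member passed the threshold under any of the 14 alternatives, and the lowest adjusted p of a member was 0.0763 (Nr4a1 without vehicle replicate 2, limma). The 18 members whose groups did not overlap kept their direction in all 245 values under the alternatives, but most alternatives could not turn it. For such members the sign is fixed when a library is left out or the pseudocount, filter, variance prior or block is changed. It is also fixed under the handling of shared symbols and zeros. Only quantile normalization, median centring and removal of the length trend could have turned it. Among the 16 with overlap the direction turned in 29 of 218. The number of all genes past the threshold, 15 in the fit as reported, was 27 with a pseudocount of 0.1, 0 with no filter, 24 with quantile normalization, 23 with median centring and 0 to 442 without 1 library (442 without vehicle replicate 1, 0 without UAB126 replicate 2, where 6.83% still had an unadjusted p under 0.05). With no filter, 10.7% of 16543 symbols still had an unadjusted p under 0.05. Members with an unadjusted p under 0.05, 2 as reported, numbered 0 of 21 at a mean of at least 5 FPKM (14.3% of all genes), 1 with median centring (13.8%), 1 without doubtful zeros (14.1%) and 0 to 6 without 1 library (5.21% to 22.0%, with the 6 beside the 22.0%). Members higher without overlap numbered 7 of 21 at a mean of at least 5 FPKM (20.2% of all genes) and 14 to 17 without 1 library (33.8% to 37.7%). Those lower numbered 8 to 13 without 1 library (34.5% to 44.3%), where fewer libraries must stand apart. Without 1 library the median difference of the members was 0.09 to 0.15.

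Equal replicate numbers may or may not pair the libraries: the deviations of same-numbered libraries had a Pearson correlation of 0.18 over 10786 genes. With the replicate block, 148 genes passed, and 4 of 34 members (Nr4a1, Hnf4a, Ncoa2 and Pparg) had an unadjusted p under 0.05, against 23.4% of all genes. The block also brought Gstm3, Cyp2b10, Thrsp, Mid1ip1, Apoa4, Tat, Zbtb16, Igfbp1 and Cdkn1a past the threshold.

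Directions that turned were those of small differences. With quantile normalization Ppara was at 0.25, Nr1h4 at 0.23, Nr1i2 at 0.11 and Nr5a2 at 0.0285. With median centring Ppara was at 0.012 and Nr5a2 at 0.0017, and with the length trend removed Nr1h4 was at 0.10, Nr1i2 at 0.0291 and Nr3c2 at -0.0696. Without 1 library the ranges were -0.35 to 0.34 for Ppara, -0.40 to 0.43 for Rara, -0.41 to 0.15 for Rarb, -0.45 to 0.31 for Rarg, -0.04 to 0.18 for Nr1h2, -0.0938 to 0.0302 for Nr1h4, -0.36 to 0.29 for Nr1i2, -0.0824 to 0.23 for Thra, -0.41 to 0.12 for Nr2f2, -0.12 to 0.0813 for Nr5a2, -0.21 to 0.32 for Nr3c2, -0.12 to 0.49 for Esr1 and -0.13 to 0.22 for Esrra. The causes were not tested.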
